A study of Mus musculus with 9 samples.

Results

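The response of control B cells to lipopolysaccharide (LPS) and interleukin-4 (IL-4) was read from the 4 Mb1Cre libraries among the 9 RNA sequencing libraries of the series. All libraries came from primary B cells of mouse spleen. In Mb1Cre mice the Cre recombinase is driven from the Mb1 (Cd79a) locus in the B cell lineage without a floxed Mct1, so they are the controls of the Mct1f/fMb1Cre mice, in which Cre removes a floxed part of Mct1 (Slc16a1). The day 0 group held 2 libraries of untreated Mb1Cre B cells, and the day 3 group held 2 libraries of Mb1Cre B cells kept for 3 days in RPMI-1640 medium with LPS at 10 μg/mL and IL-4 at 50 ng/mL. The labels gave neither age nor sex nor the mice behind each library, so that the p values measure the spread between these libraries. A day 3 culture without LPS and IL-4 was not part of the comparison, so time in culture and the 2 agents cannot be told apart. Of 17596 genes listed, the 10823 whose FPKM averaged 1 or more across the 9 libraries were compared between the days.

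LPS is sensed on B cells by TLR4 and the related receptor CD180 and signals to NF-kB, while IL-4 signals through its receptor and the JAK kinases to the transcription factor STAT6. Given together, they drive resting B cells out of quiescence into growth and division and start class-switch recombination (CSR), the exchange of the heavy chain constant region of the antibody. Such cells are known for a high use of glucose, with export of lactate through monocarboxylate transporters (MCTs), and some of them go on towards antibody-secreting plasma cells.

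Values were fragments per kilobase and 1000000 mapped fragments (FPKM), a unit per gene length that hides the sequencing depth, so the counting error of each value is unknown. The FPKM of all genes summed to 477079 and 488428 on day 0 and to 563586 and 547778 on day 3. Between 10223 and 11064 genes per library had at least 1 FPKM. Pearson's r across genes (which are no independent replicates) was 0.993 between the day 0 libraries, 0.998 between the day 3 libraries and 0.805 to 0.808 between days. Markers of B cell identity were present on both days, though 7 of 16 were lower on day 3, and Cd79a, a signalling chain of the B cell receptor, had 1591 and 1714 FPKM on day 0 against 575 and 567 FPKM on day 3.

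The libraries of the days also differed in Y-linked genes and in markers of other cells. The Y-linked Ddx3y had 0.24 and 0.02 FPKM on day 0 against 14.7 and 16.5 FPKM on day 3, and all 4 Y-linked genes with values were higher on day 3. The Y-linked level and the day cannot be told apart within these 4 libraries. In addition, 17 markers of myeloid cells took 0.307% and 0.359% of the FPKM sum on day 0 and 0.00525% and 0.0050% on day 3, with Lyz2, the lysozyme of macrophages and granulocytes, at 614 and 701 FPKM on day 0 and at 11.5 and 10.0 FPKM on day 3. In bulk RNA, fewer cells of a type and less RNA per cell cannot be told apart.

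A gene was called where its adjusted p was below 0.05 and its log2 fold change passed 1 in either direction. By this rule 1324 genes were higher on day 3, which is 12.2% of the genes tested, and 1867 were lower, which is 17.3%. All adjusted p values are from limma on log2(FPKM + 1) with Benjamini-Hochberg adjustment over the 10823 genes, and this scale understates the change of genes with low values. An exact permutation test of 2 against 2 libraries cannot give a p under 0.333 and was not used. Of the genes called, 385 were above 2 and 25 above 4 on the log2 scale, and 559 were below -2 and 71 below -4. From under 1 FPKM in both day 0 libraries, 24 genes reached at least 10 FPKM in both day 3 libraries, and 90 genes went from at least 10 FPKM to under 1 FPKM. The 24 include the Y-linked Ddx3y and Eif2s3y, and the 90 include markers of myeloid cells such as C1qa and Csf1r. Over all genes the log2 fold change had a median of -0.12 with the values as deposited, -0.31 with all libraries brought to the same FPKM total, 0.06 with median-of-ratios scaling and 0.02 with quantile normalization. The share of higher genes among those called was 41.5%, 30.6%, 54.0% and 49.6%, respectively. Of the 175 named genes with a test, 23 lost or reversed their call under at least 1 alternative scaling, pseudocount, filter, fit or library set, namely Cdkn1b, Col1a1, Crebbp, Ddx3y, Dlst, Eif2s3y, Gpr183, H2-Eb2, Il13ra1, Jak1, Kat6a, Kdm5d, Ldhb, Pdk2, Ppbp, Prdm1, Rpl3, Rplp0, Rps2, Sdc1, Slc16a7, Tyk2 and Uty, while H2-Aa and Sirt1 gained one. Among the alternatives was a covariate made from the levels of Ddx3y, Eif2s3y, Kdm5d and Uty, which takes out their own change by construction. The counts of the gene lists given in the following are to be read against 12.2% higher and 17.3% lower.

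**Figure D1:**
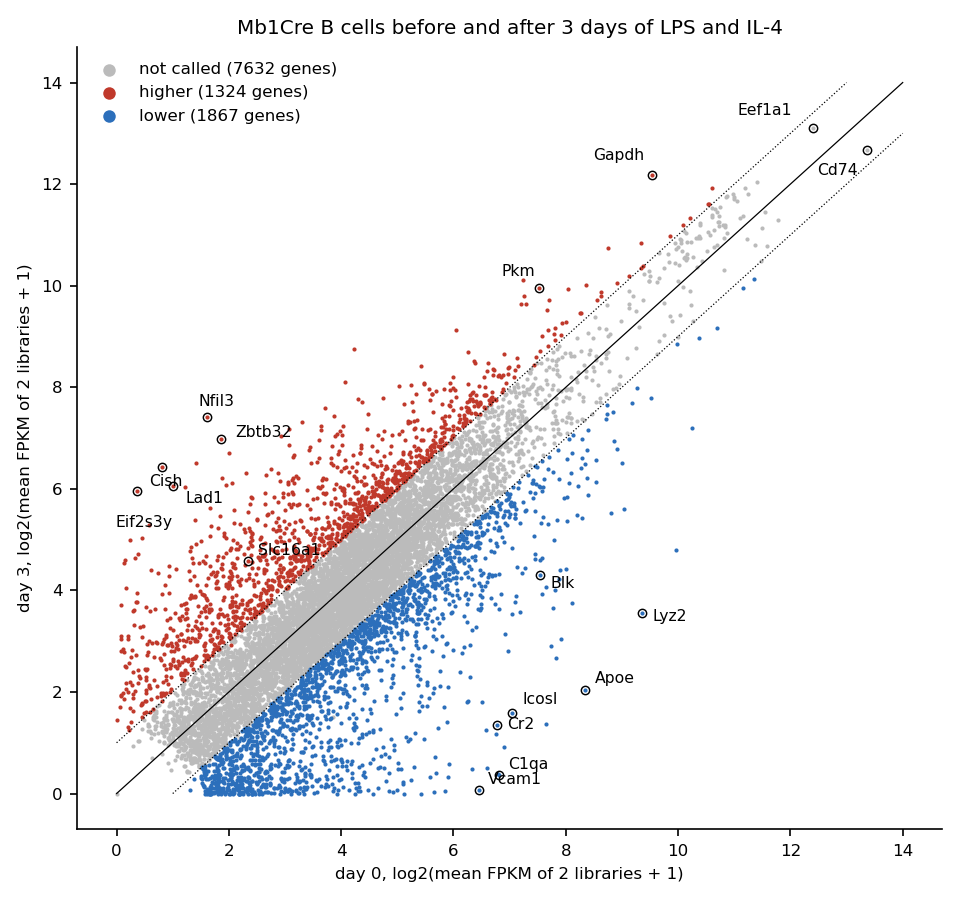
Each point is 1 of the 10823 genes tested, with the log2 of the mean FPKM + 1 of the 2 day 0 libraries on the x axis and of the 2 day 3 libraries on the y axis; the solid line marks equal values and the dotted lines a log2 difference of 1. The 1324 higher genes (red) include Nfil3, Cish and Zbtb32 at the upper left, and the 1867 lower genes (blue) include a band near 0 on day 3 with C1qa and Vcam1.

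Promoters of the genes of division, replication and lactate transport are shown, since most listed genes of division and replication were called higher and Slc16a1 is the gene the series is about. Promoters of 300 bases, from 250 before to 50 after the start of the gene, were taken from RefSeq (GRCm38.p6) and matched by gene ID for 8790 of the 10823 genes tested. TTTGAA, the core of the cell cycle genes homology region, was found on either strand in 15.0% of all these promoters and in 25 of the 32 matched mitosis genes (78.1%). CCAAT, the NF-Y box, was found in 44.1% of all promoters and in 78.1% of those of the mitosis genes. Both words stood together in 7.53% of all promoters and in 22 of the 32 mitosis promoters. The 4 mitosis genes with the largest fold change among those with TTTGAA ahead of the start are printed 5′ to 3′ on the strand of the gene, with TTTGAA or its reverse complement and CCAAT or its reverse complement in capitals.
Top2a (chr11:99024190-99024289, minus strand): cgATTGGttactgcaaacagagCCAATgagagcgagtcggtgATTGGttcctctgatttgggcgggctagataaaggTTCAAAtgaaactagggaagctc
Ncapg (chr5:45669825-45669924, plus strand): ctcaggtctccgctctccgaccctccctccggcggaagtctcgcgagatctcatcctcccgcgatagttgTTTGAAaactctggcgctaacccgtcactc
Ube2c (chr2:164769829-164769928, plus strand): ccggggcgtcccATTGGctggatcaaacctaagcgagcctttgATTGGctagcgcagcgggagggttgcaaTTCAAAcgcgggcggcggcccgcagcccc
Cdk1 (chr10:69352913-69353012, minus strand): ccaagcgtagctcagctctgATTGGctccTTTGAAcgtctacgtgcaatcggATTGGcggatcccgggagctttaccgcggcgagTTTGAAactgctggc

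The E2F words TTTCGCGC and TTTGGCGC, of which at least 1 was held by 1.95% of all promoters, were found in 12 of the 32 matched DNA replication genes (37.5%). Both words can overlap on opposite strands, as they do in Mcm5. The 4 genes with the largest fold change among those with a word ahead of the start are shown with these words in capitals.
Uhrf1 (chr17:56304082-56304181, plus strand): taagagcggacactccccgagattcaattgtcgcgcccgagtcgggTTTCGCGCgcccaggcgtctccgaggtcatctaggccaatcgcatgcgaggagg
Orc1 (chr4:108579354-108579453, plus strand): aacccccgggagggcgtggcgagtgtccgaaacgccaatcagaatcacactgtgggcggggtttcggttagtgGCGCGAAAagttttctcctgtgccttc
Mcm6 (chr1:128359706-128359805, minus strand): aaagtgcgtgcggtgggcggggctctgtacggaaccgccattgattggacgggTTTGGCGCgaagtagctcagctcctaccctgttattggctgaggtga
Mcm5 (chr8:75109314-75109413, plus strand): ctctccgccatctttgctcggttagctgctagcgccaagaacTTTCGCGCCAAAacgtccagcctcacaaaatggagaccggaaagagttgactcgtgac

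CACGTG, the E-box bound by MYC and related factors, stood in 12.1% of all promoters. It stood in 12.7% of the promoters of higher genes and in 10.3% of those of lower genes. Among the lists it was in 25.0% of 32 ribosome biogenesis promoters and in 30.8% of 13 aminoacyl-tRNA synthetase promoters. It was also in 25.0% of 24 sterol and fatty acid promoters and in 26.7% of 15 immediate-early promoters. More immediate-early genes were lower than higher. The promoter of Slc16a1 holds it too, where it is in capitals.
Slc16a1 (chr3:104638417-104638516, plus strand): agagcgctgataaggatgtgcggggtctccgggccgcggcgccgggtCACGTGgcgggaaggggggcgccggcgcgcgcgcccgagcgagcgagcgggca

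The STAT6 word, TTC and GAA separated by any 4 bases, was in 6.68% of all promoters and in 1 of the 13 matched genes of the IL-4 receptor and STAT6 list (7.69%). A match describes letters within 300 bases, not a bound site.

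Monocarboxylate transporters were examined first, as MCT1 is the transporter the series is about. Slc16a1 (GRCm38 chr3:104638668-104658462, plus strand), which encodes MCT1, a proton-linked carrier of lactate and pyruvate, had 4.33 and 3.80 FPKM on day 0 against 22.6 and 23.0 FPKM on day 3. Both day 3 libraries lay far above both day 0 libraries, a 5.60-fold difference of the means (log2 fold change 2.23 ± 0.078 (SE), adjusted p = 3.5e-10). Slc16a3, which encodes MCT4, the lactate exporter of glycolytic cells, had 3.62 and 4.87 FPKM on day 0 against 33.1 and 30.9 FPKM on day 3, again without overlap (2.66 ± 0.13). On the per-length scale the level of Slc16a3 on day 3 was above that of Slc16a1, while their day 0 values overlapped. Slc16a7, which encodes MCT2, fell from 3.98 and 3.28 FPKM to 0.64 and 0.70 FPKM (-1.47 ± 0.10). Bsg, which encodes basigin, the chaperone that brings MCT1 and MCT4 to the membrane, had 98.0 and 94.5 FPKM on day 0 against 199 and 175 FPKM on day 3, just under the fold limit at a log2 fold change of 0.95. Of the 6 genes listed 5 were tested, 2 were higher and 1 was lower. The sixth, Slc16a8, which encodes MCT3, stayed at or under 0.12 FPKM in the 4 libraries.

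Genes of glycolysis were broadly higher on day 3. Of the 22 genes of glucose uptake and glycolysis 21 were tested, 14 were higher, 3 were lower and the median log2 fold change was 1.85. The list took 0.430% and 0.413% of the FPKM sum on day 0 and 1.79% and 1.78% on day 3. Gapdh, the glyceraldehyde-3-phosphate dehydrogenase that often serves as a reference gene, had 740 and 736 FPKM on day 0 against 4728 and 4589 FPKM on day 3. It moved from rank 102 to rank 3 among all genes by mean FPKM, and its log2 fold change was 2.66 ± 0.057. Actb, the other common reference gene, had a log2 fold change of -0.34 and was not called.

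The largest fold changes of the list were those of Pgk1 and Tpi1. Pgk1, phosphoglycerate kinase, had 67.3 and 62.3 FPKM on day 0 against 580 and 537 FPKM on day 3 (3.09 ± 0.052). Tpi1, triosephosphate isomerase, had 42.6 and 40.7 FPKM on day 0 against 354 and 330 FPKM on day 3 (3.01 ± 0.051). In both genes both day 3 libraries were far above both day 0 libraries, with ratios of the means of 8.62 and 8.22. Pkm (chr9:59656368-59679375, plus strand), the pyruvate kinase that makes pyruvate, had 184 and 180 FPKM on day 0 against 1001 and 972 FPKM on day 3 (2.43 ± 0.045, adjusted p = 5.2e-12). Ldha, the lactate dehydrogenase subunit that favours lactate, had 158 and 154 FPKM on day 0 against 808 and 784 FPKM on day 3 (2.35 ± 0.046).

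Isoenzymes of the same steps went different ways. Hk2, the inducible hexokinase, had 4.10 and 3.82 FPKM on day 0 against 17.9 and 17.2 FPKM on day 3 and was called higher (1.90 ± 0.062). Hk1, the hexokinase of most tissues, had 23.3 and 23.0 FPKM on day 0 against 33.5 and 33.1 FPKM on day 3 and was not called (0.51 ± 0.045). Despite the smaller change, Hk1 stayed above Hk2 on the per-length scale on both days. Hk3, a hexokinase of myeloid cells, fell from 6.41 and 6.35 FPKM to 0.52 and 0.51 FPKM. Ldhb, the lactate dehydrogenase subunit that favours pyruvate, fell from 3.64 and 2.51 FPKM to 0.20 and 0.24 FPKM, and Eno3, an enolase known from muscle, was the third member called lower (-1.61 ± 0.059).

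Downstream of pyruvate most genes were not called. Among 33 tested genes of pyruvate entry and the tricarboxylic acid cycle, 2 were higher, 1 was lower and 30 were not called, with a median of 0.46. With median-of-ratios scaling 6 were higher, with quantile normalization 4 and with the same FPKM total 1. Pdha1, the pyruvate dehydrogenase subunit, had 30.9 and 29.2 FPKM on day 0 against 41.7 and 41.4 FPKM on day 3, and its log2 fold change of 0.46 ± 0.047 did not reach the limit. The pyruvate dehydrogenase kinases, which turn that enzyme off, moved apart. Pdk3 rose from 12.7 and 12.8 FPKM to 37.7 and 36.9 FPKM (1.48 ± 0.052), and Pdk2 fell from 7.34 and 7.07 FPKM to 1.61 and 1.39 FPKM (-1.72 ± 0.099). Dlst, a subunit of the 2-oxoglutarate dehydrogenase complex, was the other gene called higher, at 1.16.

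Most genes of oxidative phosphorylation had a positive log2 fold change that did not reach the limit. The list took 1.288% and 1.245% of the FPKM sum on day 0 and 1.866% and 1.788% on day 3. Of 70 genes tested, 17 were higher, none was lower and 68 had a positive log2 fold change, with a median of 0.71 that stayed positive under each scaling. The count of higher genes was 9 with the same FPKM total, 10 with quantile normalization and 30 with median-of-ratios scaling. Ndufa12, of complex I, had 28.0 and 26.6 FPKM on day 0 against 82.5 and 85.1 FPKM on day 3 (1.58 ± 0.075). Cycs, cytochrome c, rose from 20.5 and 19.1 FPKM to 58.9 and 54.5 FPKM. The genes of mitochondrial fusion Mfn1, Mfn2 and Opa1 had log2 fold changes of 0.18, -0.03 and 0.20, and none of the 6 genes of mitochondrial dynamics was called.

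**Figure D2:**
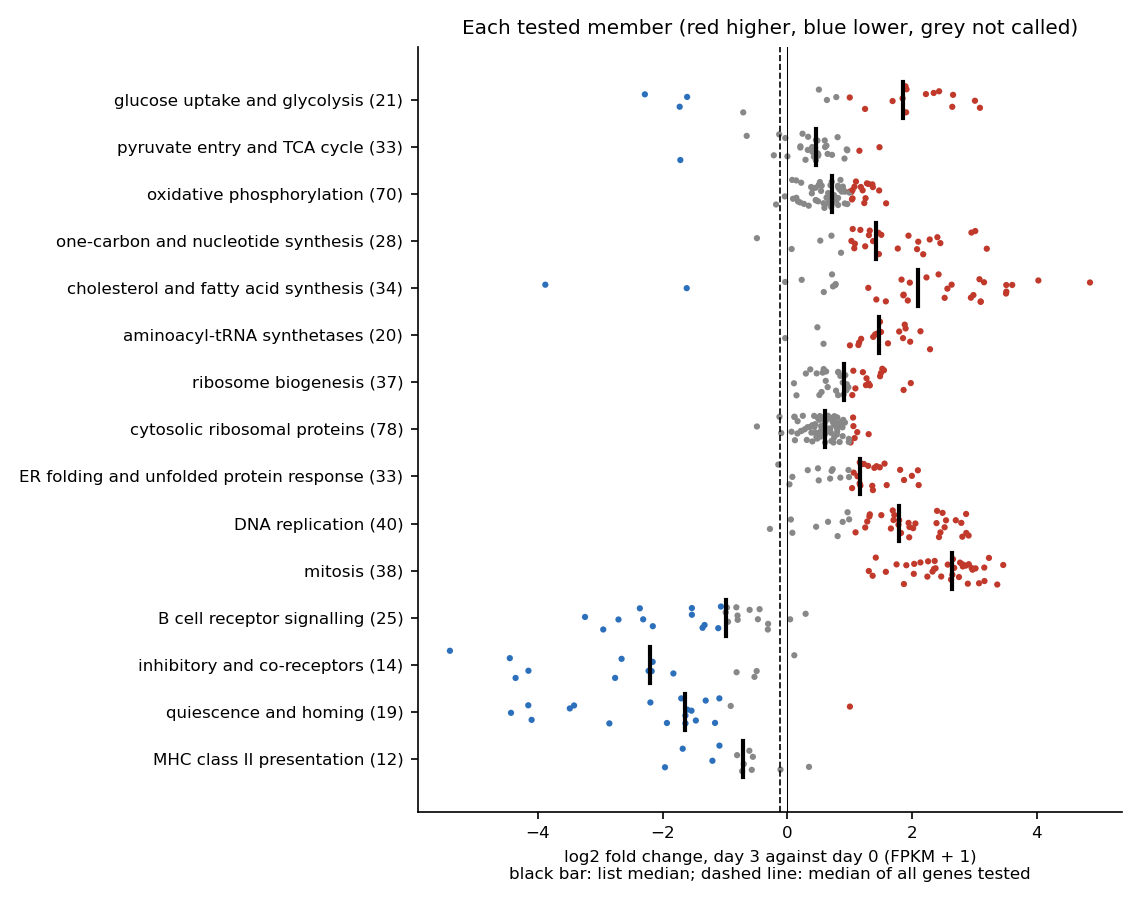
Each point is 1 tested gene of a list, with its log2 fold change of day 3 against day 0 on the x axis, the black bar the list's median and the dashed line the median of all genes (-0.12); the number tested stands behind each list. Glycolysis splits into 14 higher and 3 lower genes, the tricarboxylic acid cycle lies mostly between 0 and 1, and all 38 mitosis genes lie to the right of 1.

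Genes for the biosynthesis of building blocks were broadly higher on day 3. In the synthesis of serine, one-carbon units and nucleotides 23 of 28 tested genes were higher and none was lower, with a median of 1.42. Psat1, a phosphoserine aminotransferase of serine synthesis, had 16.2 and 14.7 FPKM on day 0 against 151 and 148 FPKM on day 3 (3.20 ± 0.055). Mthfd2, the mitochondrial enzyme of the folate cycle, rose from 10.7 and 11.2 FPKM to 92.0 and 90.2 FPKM, and Rrm2, the subunit of ribonucleotide reductase made for DNA synthesis, from 13.3 and 13.3 FPKM to 115 and 114 FPKM. Asns, asparagine synthetase, and Cth, which makes cysteine from cystathionine, were among the 10 largest increases of all genes. Cth had 0.16 and 0.19 FPKM on day 0 against 31.4 and 30.2 FPKM on day 3 (4.76 ± 0.075).

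Amino acid transporters rose in part. Of 12 listed genes 10 were tested, 4 were higher and none was lower. Slc7a5, the light chain of the large neutral amino acid transporter LAT1, had 11.9 and 10.4 FPKM on day 0 against 95.6 and 97.6 FPKM on day 3 (3.01 ± 0.072). Slc1a4, a carrier of alanine, serine and cysteine, rose from 0.65 and 0.38 FPKM to 11.5 and 10.7 FPKM, and Slc7a1, a carrier of arginine and lysine, from 13.3 and 11.9 FPKM to 36.4 and 37.5 FPKM. Of the aminoacyl-tRNA synthetases, which load amino acids onto tRNA, 17 of 20 were higher and none was lower (median 1.46). Aars, the alanine enzyme, led them with 22.2 and 22.6 FPKM on day 0 against 112 and 114 FPKM on day 3.

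Sterol and fatty acid synthesis had a median of 2.10, the largest after mitosis when the Y-linked genes are set aside, with 25 of 34 genes higher and 2 lower. Fads2, a fatty acid desaturase, had 1.85 and 0.82 FPKM on day 0 against 64.2 and 65.4 FPKM on day 3 (4.85 ± 0.17). Fdps, farnesyl diphosphate synthase of the mevalonate pathway, had 15.8 FPKM in both day 0 libraries and 282 and 263 FPKM on day 3, a 17.2-fold difference of the means (4.02 ± 0.065). Sqle, squalene epoxidase, rose from 5.84 and 4.85 FPKM to 75.9 and 76.1 FPKM. The 2 lower members export sterol out of cells. Abca1 fell from 16.9 and 17.7 FPKM to 0.23 and 0.25 FPKM (-3.88 ± 0.089) and Abcg1 from 18.6 and 20.8 FPKM to 5.65 and 5.88 FPKM. Macrophages express both genes too, and the markers of myeloid cells fell along with them, whose part in these 2 values was not tested. CCAAT stood in 20 of the 24 matched promoters of this list (83.3%, against 44.1% of all promoters). It stood in 50.0% of the promoters of all higher genes and in 40.2% of those of lower genes. It was also in 8 of the 9 matched promoters of MHC class II presentation (88.9%), a list with no gene called higher.

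Genes of ribosome making and of the endoplasmic reticulum (ER) followed. Among 37 ribosome biogenesis genes 14 were higher and none was lower, and all 37 had a positive log2 fold change under the values as deposited (median 0.90). With median-of-ratios scaling 24 were higher. Npm1, nucleophosmin, had 427 and 438 FPKM on day 0 against 1686 and 1730 FPKM on day 3 (1.98 ± 0.054). Ncl, nucleolin, rose from 98.0 and 96.2 FPKM to 338 and 374 FPKM. The 78 cytosolic ribosomal proteins took 20.1% and 20.5% of the FPKM sum on day 0 and 27.0% and 25.9% on day 3. Only 6 of them were called higher and none lower with the values as deposited, and the number higher was 1 with the same FPKM total, 21 with median-of-ratios scaling and 0 with quantile normalization. Many of these genes have near-identical pseudogenes, so their reads could be split in the counting.

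Of 33 genes of ER folding and the unfolded protein response 21 were higher and none was lower, with a median of 1.16. Xbp1, the transcription factor of the secretory programme, had 61.5 and 64.4 FPKM on day 0 against 256 and 252 FPKM on day 3 (2.00 ± 0.042). Sdf2l1 and Manf, which are made in the ER under folding load, rose by 2.11 and 2.09 on the log2 scale. Mzb1, an ER cochaperone of antibody assembly, had 146 and 147 FPKM on day 0 against 823 and 775 FPKM on day 3 (2.44 ± 0.042). Its day 3 libraries were far above its day 0 libraries, with a ratio of the means of 5.45.

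Genes of cell division rose without exception. All 38 listed mitosis genes were tested and all 38 were higher, with log2 fold changes from 1.31 to 3.46 and a median of 2.64, and this count was 38 under each of the 3 other scalings. Ccnb1, cyclin B1, had 4.64 and 3.81 FPKM on day 0 against 55.8 and 56.9 FPKM on day 3 (3.46 ± 0.075). Birc5, survivin, of the chromosomal passenger complex, rose from 12.0 and 10.4 FPKM to 125 and 123 FPKM. Tpx2, a spindle assembly factor, rose from 7.21 and 5.89 FPKM to 66.4 and 73.1 FPKM. The 4 genes whose promoters are printed with TTTGAA rose by 3.16 (Top2a), 3.16 (Ncapg), 3.02 (Ube2c) and 2.95 (Cdk1) on the log2 scale.

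In DNA replication 31 of 40 genes were higher, none was lower and the median was 1.79. Cdc45, of the replicative helicase, had 4.86 and 4.41 FPKM on day 0 against 40.9 and 41.5 FPKM on day 3 (2.91 ± 0.062). Mcm10, which helps to fire origins, rose from 2.62 and 2.40 FPKM to 24.2 and 25.0 FPKM, and Gins2, another helicase subunit, from 4.58 and 3.72 FPKM to 36.0 and 36.9 FPKM. The genes printed with the E2F words rose by 2.79 (Uhrf1), 2.52 (Orc1), 2.05 (Mcm6) and 1.96 (Mcm5).

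The D-type cyclins of G1 differed from each other. Ccnd1 fell from 14.7 and 15.3 FPKM to 0.26 and 0.17 FPKM (-3.72 ± 0.081). The markers of myeloid cells fell as well, and the part of such cells in the value of Ccnd1 was not tested. Ccnd2, another D-type cyclin, had 28.7 and 29.3 FPKM on day 0 against 131 and 135 FPKM on day 3 (2.16 ± 0.056). Ccnd3, the third D-type cyclin, had 88.0 and 108 FPKM on day 0 against 81.4 and 82.3 FPKM on day 3 and was not called (-0.25 ± 0.079). Cdkn1a, the inhibitor p21, rose from 4.88 and 3.56 FPKM to 35.6 and 34.4 FPKM, and Cdkn1b, the inhibitor p27 of resting cells, fell from 70.8 and 77.1 FPKM to 31.7 and 32.1 FPKM (-1.19 ± 0.080). Altogether 8 of 22 tested G1 genes were higher and 3 were lower. Myc, the growth factor-induced transcription factor, had 64.3 and 71.0 FPKM on day 0 against 104 and 110 FPKM on day 3, a log2 fold change of 0.65, and missed the call.

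**Figure D3:**
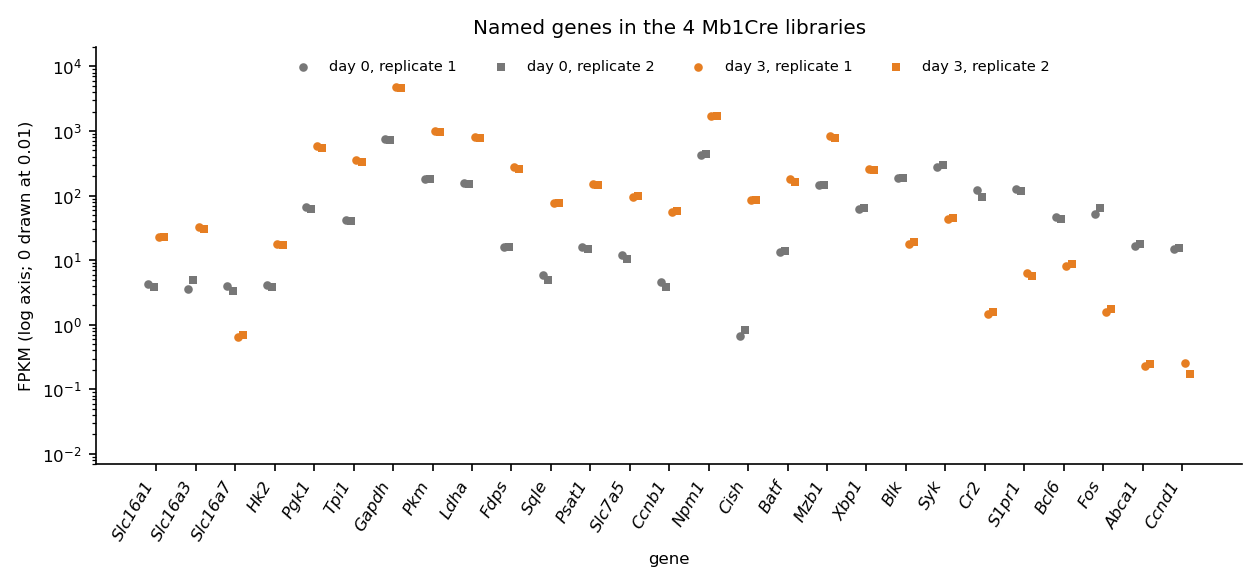
FPKM of 27 named genes in the 4 Mb1Cre libraries on a log axis, with day 0 in grey and day 3 in orange, and circles and squares for replicates 1 and 2. In each gene the 2 libraries of a day lie close together and the days do not overlap. Most of these genes were named for the size of their change, so the lack of overlap is no added result. The genes from Slc16a1 to Xbp1 are higher on day 3, except Slc16a7, and those from Blk to Ccnd1 are lower.

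Among genes of the IL-4 receptor and STAT6 pathway, feedback genes of cytokine signalling had the largest changes. Cish, an inhibitor of cytokine receptors, had 0.67 and 0.82 FPKM on day 0 against 84.3 and 85.9 FPKM on day 3, the second largest increase of all genes (5.63 ± 0.089, adjusted p = 2.8e-12). Socs2, of the same family, rose from 3.03 and 2.36 FPKM to 72.5 and 74.4 FPKM. Batf, a transcription factor that is needed for CSR, rose from 13.2 and 14.1 FPKM to 181 and 165 FPKM (3.57 ± 0.055). Of the JAK family, Jak1 and Tyk2 fell by 1.02 and 1.06 on the log2 scale, whereas Jak3, which serves the common gamma chain, had a log2 fold change of 0.40 and was not called. Il13ra1, which pairs with the IL-4 receptor in non-lymphoid cells, fell from 5.03 and 5.44 FPKM to 0.38 and 0.30 FPKM. Of 14 genes of the pathway, 7 were higher and 3 were lower, and the number lower was 1 with median-of-ratios scaling.

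LPS sensing and NF-kB genes were called at shares near those of all genes, with 3 of 26 higher, 3 lower and a median of -0.19, which became 0.02 with median-of-ratios scaling. Nfkb1, the p50 precursor, had 94.3 and 93.7 FPKM on day 0 against 224 and 236 FPKM on day 3 (1.28 ± 0.043). Tnfaip3, the feedback inhibitor A20, rose from 18.4 and 18.7 FPKM to 58.1 and 60.9 FPKM, and Ticam2, an adaptor of TLR4, rose by 1.84 on the log2 scale. Cd180, an LPS receptor of B cells, fell from 128 and 121 FPKM to 45.0 and 47.8 FPKM, and Irak2, a kinase downstream of the receptor, fell by 1.80. Cd14, the third lower gene, is also a marker of monocytes, and it was listed with 5.64 and 9.24 FPKM on day 0 against 0.59 FPKM in both day 3 libraries.

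The largest increase of all genes was that of Nfil3, a transcription factor needed for switching to IgE, with 1.60 and 2.52 FPKM on day 0 against 168 and 172 FPKM on day 3 (5.82 ± 0.13). Zbtb32, a repressor known from activated lymphocytes, rose from 2.33 and 2.89 FPKM to 124 and 127 FPKM (5.14 ± 0.073). Eif2s3y, which is Y-linked, Lad1 and Timd2 also stood among the 10 largest increases. Lad1, ladinin, had 1.07 and 0.94 FPKM on day 0 against 63.9 and 66.3 FPKM on day 3. Timd2, a ferritin receptor, rose from 0.37 and 0.60 FPKM to 39.8 and 35.9 FPKM.

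Genes of CSR were higher in part. Ung, the glycosylase that removes uracil from DNA, had 6.36 and 6.26 FPKM on day 0 against 23.5 FPKM in both day 3 libraries (1.75 ± 0.073). Exo1, an exonuclease of mismatch repair, rose from 1.97 and 1.65 FPKM to 15.8 and 13.9 FPKM. Hmces, which shields abasic sites in DNA, fell from 16.3 and 16.9 FPKM to 2.77 and 2.85 FPKM (-2.21 ± 0.066). Of 29 genes tested 7 were higher, 1 was lower and 21 were not called, and the median was 0.30. The heavy chain constant region genes were not analysed here, so switching itself was not measured.

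Surface molecules of activation went both ways, with 7 of 16 higher and 3 lower. Il2ra, the alpha chain of the IL-2 receptor, had 3.16 and 3.35 FPKM on day 0 against 44.9 and 48.8 FPKM on day 3 (3.49 ± 0.070). Fas, the death receptor of germinal centre B cells, rose from 2.87 and 3.23 FPKM to 26.5 and 27.2 FPKM, and Ctla4, an inhibitor of costimulation, rose from 0.35 and 0.52 FPKM to 12.1 and 11.6 FPKM. Icosl, the ligand that B cells show to helper T cells, fell from 141 and 122 FPKM to 1.77 and 2.26 FPKM (-5.46 ± 0.085). Cd38 and Cd24a were the other members called lower, by 2.40 and 1.90 on the log2 scale.

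Fate genes of the germinal centre and of plasma cells gave a mixed picture, with 5 of 13 tested genes higher and 3 lower. Bcl6, the repressor that germinal centre B cells depend on, had 47.1 and 43.1 FPKM on day 0 against 8.26 and 8.81 FPKM on day 3 (-2.27 ± 0.069). Bach2, which holds back plasma cell differentiation, fell from 32.0 and 33.1 FPKM to 10.0 and 11.1 FPKM (-1.54 ± 0.062). Prdm1, which encodes Blimp-1, the master factor of plasma cells, had 2.15 and 1.86 FPKM on day 0 against 8.41 and 8.39 FPKM on day 3 (1.65 ± 0.088). Irf4, which plasma cells and CSR need, had 50.4 and 46.9 FPKM on day 0 against 80.3 and 77.8 FPKM on day 3 and was not called (0.69 ± 0.047). Mef2b, a factor upstream of Bcl6, rose from 3.27 FPKM in both libraries to 39.8 and 38.7 FPKM. Of the markers of plasma cells, Sdc1 (CD138) fell from 8.29 and 6.25 FPKM to 2.54 and 2.29 FPKM, and Jchain, the joining chain of IgM and IgA, had a log2 fold change of 0.79, and missed the call.

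**Figure D4:**
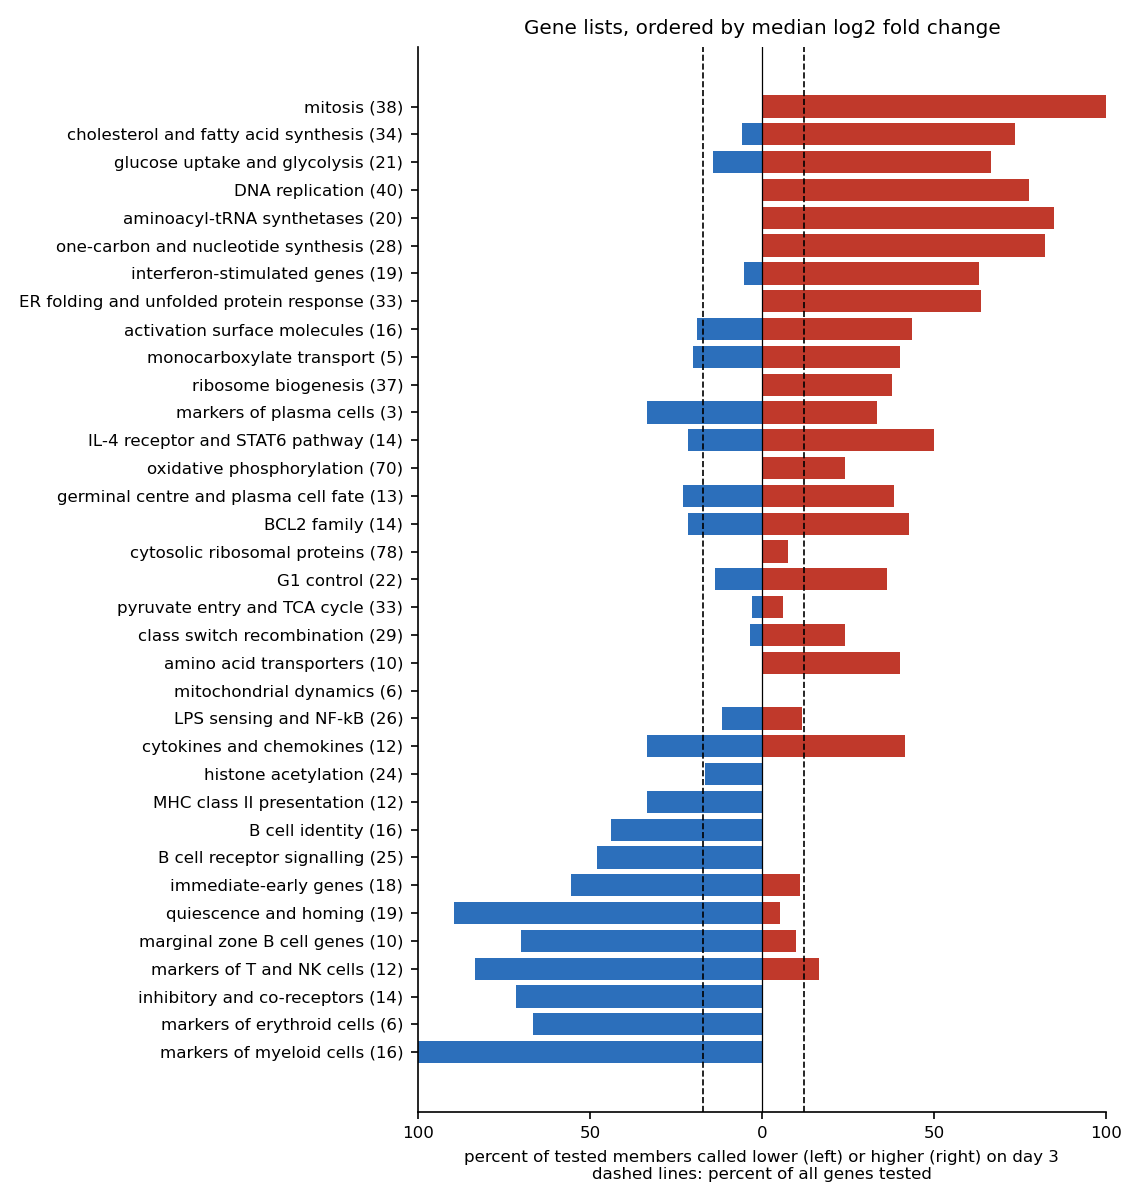
Percent of the tested genes of each list that were lower (blue, to the left) or higher (red, to the right) on day 3, with the number tested behind each list and the lists ordered by median log2 fold change. The dashed lines mark all genes tested, 17.3% lower and 12.2% higher; mitosis reaches 100% higher, and the myeloid markers 100% lower.

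Genes of antigen receptor signalling were lower or not called. Of 25 genes of B cell receptor (BCR) signalling 12 were lower, 13 were not called and none was higher, with a median of -0.99. Blk (chr14:63372836-63417037, minus strand), a Src family kinase of the BCR, had 186 and 185 FPKM on day 0 against 18.1 and 19.3 FPKM on day 3, 9.92-fold lower by the means (-3.24 ± 0.049, adjusted p = 2.5e-12). Syk, the kinase recruited to the phosphorylated receptor, fell from 282 and 301 FPKM to 43.2 and 44.4 FPKM (-2.71 ± 0.050). Rasgrp2, an activator of the small GTPase Rap1, fell from 183 and 190 FPKM to 23.5 and 22.9 FPKM. In each of these genes both day 3 libraries were far below both day 0 libraries.

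Inhibitory receptors and co-receptors were mostly lower, with 10 of 14 lower, none higher and a median of -2.20. Cr2, the complement receptor CD21 of follicular and marginal zone B cells, had 122 and 93.9 FPKM on day 0 against 1.49 and 1.60 FPKM on day 3 (-5.41 ± 0.10). Pirb, an inhibitory receptor for MHC class I that myeloid cells share, fell from 74.2 and 75.6 FPKM to 2.19 and 2.78 FPKM. Fcrla, an Fc receptor-like protein of B cells, fell from 266 and 284 FPKM to 12.2 and 12.7 FPKM (-4.36 ± 0.076). Of 10 marginal zone genes, which include Cr2, 7 were lower, and Cd1d1, which presents lipids, and the Notch target Dtx1 fell by 2.78 and 2.86 on the log2 scale. The 1 higher member was Mzb1.

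Quiescence and homing genes were nearly all lower, 17 of 19, with a median of -1.63. S1pr1, the receptor that guides lymphocytes out of tissue, had 128 and 120 FPKM on day 0 against 6.37 and 5.68 FPKM on day 3 (-4.15 ± 0.071). Itgb7, an integrin chain of gut homing, fell from 75.8 and 75.2 FPKM to 2.77 and 2.34 FPKM, and Cxcr4, the CXCL12 receptor, from 181 and 253 FPKM to 11.1 and 12.0 FPKM. Foxo1, a transcription factor of resting B cells, had 67.9 and 67.4 FPKM on day 0 against 23.9 and 23.8 FPKM on day 3 (-1.47 ± 0.051). The 1 gene called higher was Gpr183 (EBI2), which guides B cells within the follicle, at the edge of the limit with 1.00 ± 0.057, and it was no longer called with the same FPKM total (0.81), with quantile normalization (0.95), without day 0 replicate 2 (0.94) or without day 3 replicate 2.

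The B cell identity list had 7 of 16 genes lower and none higher (median -0.94). Spib, a transcription factor of BCR signalling, fell from 464 and 496 FPKM to 108 and 109 FPKM, Cd72 by 2.16 and Ptprc (CD45) by 1.86 on the log2 scale. Pax5, the factor that holds B cell identity, had 167 and 159 FPKM on day 0 against 84.6 and 91.7 FPKM on day 3 and was not called (-0.88). Antigen presentation on MHC class II showed 4 of 12 genes lower and none higher, and the number lower was 2 with median-of-ratios scaling and 7 with quantile normalization. The list took 4.04% and 4.12% of the FPKM sum on day 0 and 2.22% and 2.19% on day 3. H2-Ob and H2-Oa, the chains of the inhibitor of peptide loading, fell by 1.96 and 1.68, whereas the classical chain H2-Aa had a log2 fold change of -0.81 and was not called. Cd74, the invariant chain, had the highest level of all genes on day 0, at 10266 and 10929 FPKM, and the second highest on day 3, at 6683 and 6374 FPKM.

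Immediate-early genes, which respond within minutes to stimulation and also to handling of cells, were lower in 10 of 18 tested members and higher in 2. Fos fell from 52.7 and 63.3 FPKM to 1.58 and 1.74 FPKM (-4.47 ± 0.10), Fosb from 8.33 and 7.98 FPKM to 0.04 FPKM in both libraries, and Egr3 from 42.0 and 36.8 FPKM to 6.20 and 7.01 FPKM. Atf3 and Egr2 were the 2 that rose. Atf3, a stress-induced factor, had 1.54 and 2.14 FPKM on day 0 against 31.9 and 29.2 FPKM on day 3, and Egr2 rose from 5.60 and 4.18 FPKM to 23.5 and 22.8 FPKM.

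Interferon-stimulated genes were higher in 12 of 19 tested members and lower in 1, with a median of 1.34. Isg15, a ubiquitin-like modifier, had 12.5 and 11.8 FPKM on day 0 against 198 and 183 FPKM on day 3 (3.87 ± 0.10). Ifih1, the RNA sensor MDA5, rose from 2.87 and 3.55 FPKM to 20.6 and 21.6 FPKM, and Oasl1 rose by 2.38 on the log2 scale. Ifit3 was the member called lower (-1.65 ± 0.14), though it has close paralogues that could share its reads.

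Cytokines and survival genes split in both directions. Among 12 tested cytokines and chemokines 5 were higher and 4 were lower. Ccl22, a chemokine that draws T cells, had 2.75 and 2.25 FPKM on day 0 against 36.1 and 36.7 FPKM on day 3 (3.42 ± 0.12). Ltb, lymphotoxin beta, which keeps the structure of lymphoid tissue, fell from 451 and 443 FPKM to 48.4 and 42.2 FPKM (-3.28 ± 0.059). In the BCL2 family 6 of 14 genes were higher and 3 were lower. Bcl2l1, which encodes BCL-XL, had 4.57 and 4.06 FPKM on day 0 against 55.4 and 55.9 FPKM on day 3 (3.42 ± 0.067). Mcl1, another survival protein, fell from 317 and 303 FPKM to 126 and 123 FPKM, and Bmf, a death-promoting member, fell from 16.0 and 19.1 FPKM to 2.03 and 1.90 FPKM. Bcl2a1d and Bcl2a1b were higher and Bcl2a1a was lower, and since they are near-identical copies the division of reads among them is uncertain.

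Writers and erasers of histone acetylation, which the study examined for CSR, were lower in 4 of 24 genes and higher in none, and the number lower was 7 with the same FPKM total and 2 with median-of-ratios scaling. Crebbp, which encodes the acetyltransferase CBP, had 18.2 and 18.5 FPKM on day 0 against 7.29 and 7.57 FPKM on day 3 (-1.20 ± 0.058). Ep300, its close relative, had 42.3 and 39.9 FPKM on day 0 against 22.9 and 24.3 FPKM on day 3 and was not called (-0.77 ± 0.056). Kat6a, an acetyltransferase, and Hdac10, a deacetylase, fell by 1.20 and 1.71, Hdac2 and Sirt1 had log2 fold changes of 0.32 and -0.89, and the share of 16.7% lower was near the 17.3% of all genes.

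Markers of cells other than B cells were lower on day 3 in most lists, and their part in the changes of single genes was not tested. All 16 tested myeloid markers of 17 listed were lower, with a median of -4.55, and the 10 largest decreases of all genes were C1qa, C1qc, Vcam1, Apoe, S100a9, C1qb, S100a8, Csf1r, Lyz2 and Fcna, which are known from macrophages or neutrophils, although Vcam1 and Apoe are made by other cells too. C1qa, a complement chain of macrophages, had 105 and 119 FPKM on day 0 against 0.29 FPKM in both day 3 libraries (-6.45 ± 0.15). S100a9, of neutrophils, fell from 166 and 232 FPKM to 1.91 and 1.28 FPKM. Csf1r, the receptor that macrophages need, fell from 76.1 and 82.6 FPKM to 0.35 and 0.46 FPKM.

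Of 9 erythroid markers 6 were tested and 4 were lower. Hbb-bs, a haemoglobin chain, had 46.4 and 37.8 FPKM on day 0 and was listed at 0 in both day 3 libraries, as was Hba-a2, a near-identical copy of Hba-a1. Hbb-bt, a paralogue of Hbb-bs, had 8.27 and 11.7 FPKM on day 0 against 7.69 and 6.16 FPKM on day 3 and was not called. Of 12 tested markers of T and NK cells 10 were lower and 2 were higher, and the defining T cell gene Cd3e had 2.93 and 2.90 FPKM on day 0 against 0.11 and 0.04 FPKM on day 3. The 2 that rose were Thy1, from 8.86 and 10.9 FPKM to 113 and 111 FPKM, and Gzma, from 35.8 and 42.0 FPKM to 92.5 and 89.4 FPKM. The other markers of the list with values above 1 FPKM on day 3 were Lck at 10.1 and 10.7, Nkg7 at 4.93 and 5.08, Cd8b1 at 1.10 and 1.07 and, in 1 library, Klrd1 at 1.11 FPKM, and all 4 were called lower. Col1a1, a collagen of stroma, was called lower, but only day 0 replicate 1 was high, at 28.8 FPKM against 1.25 FPKM in replicate 2, and without that library its log2 fold change was -0.25 and no longer called.

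**Figure D5:**
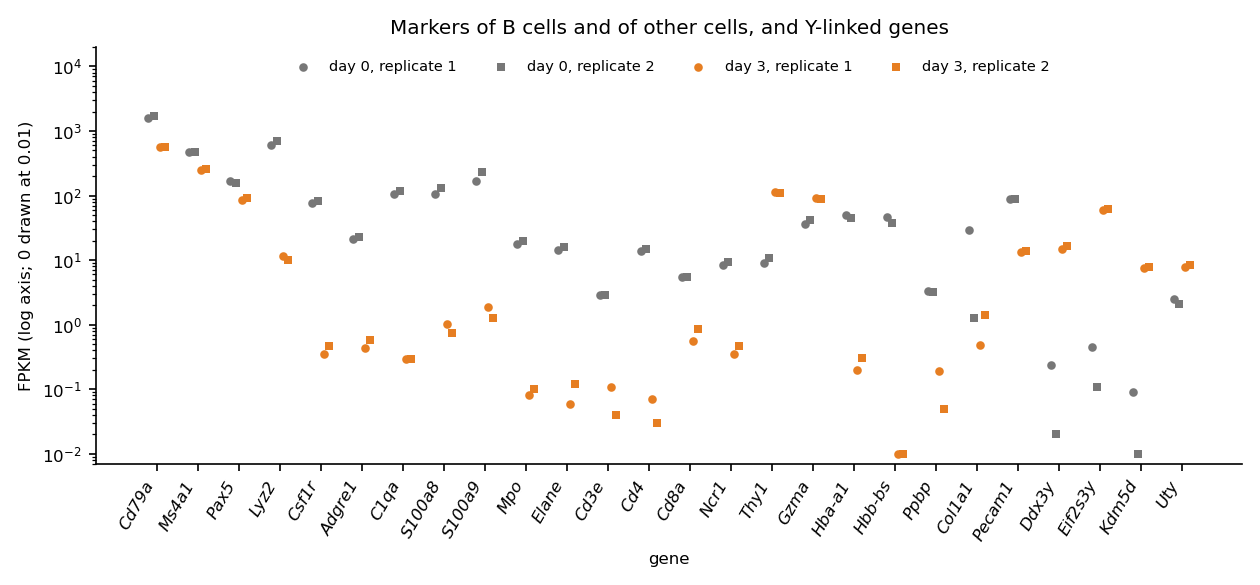
FPKM of markers of B cells, myeloid, T and NK, erythroid, platelet and stromal cells and of Y-linked genes in the 4 libraries, on a log axis with values of 0 drawn at 0.01. The B cell genes stay high on both days, with the lowest value 84.6 FPKM for Pax5, most other markers drop on day 3, and the Y-linked genes are low in both day 0 libraries and high in both day 3 libraries.

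The control response was compared with that of Mct1f/fMb1Cre B cells, from 2 libraries on day 0 and 3 on day 3, by the interaction of genotype and day. The Y-linked Ddx3y had 0.24 and 0.02 FPKM in the control day 0 libraries against 31.1 and 0.20 FPKM in the floxed ones. The groups were thus not balanced in the Y-linked level, whose part in the interaction was not tested. For Pkm the interaction was -0.16 ± 0.061 on the log2 scale (adjusted p = 0.14) and for Blk 0.04 ± 0.066 (adjusted p = 0.76), so that a difference of the responses was not detectable for these genes. The increase of Slc16a1 was smaller in the floxed cells, with an interaction of -1.06 ± 0.11 (adjusted p = 0.00042). In the floxed cells Slc16a1 had 3.71 and 4.06 FPKM on day 0. On day 3 it had 10.8, 9.81 and 9.50 FPKM there, below both control libraries. A value per gene does not tell reads of the floxed part from those of the rest, so loss of that part was not measured. Over all 10823 genes, 9.42% had an interaction with adjusted p under 0.05 and 0.517% were also above 1 in size on the log2 scale. Of the 175 named genes with a test, most of which were chosen for the size of their change, 50 passed (28.6%), and 5 of them were above 1 in size.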

How the data were processed

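Gene-level FPKM values of 9 libraries of mouse splenic B cells were used as deposited. The authors sequenced total RNA on a BGISEQ platform and deposited FPKM values with 2 decimals. The labels name TRNzol for the extraction whereas the study's methods name a column kit. The submitters' processing notes name Bowtie2 and the builds GRCm38 and mm10, and the tool that made the FPKM values and all versions are not given in the sources used here. FPKM gives no read counts, so depth and counting error are unknown, and values of low genes are less precise.

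Samples were grouped by genotype and day from the labels (2 Mb1Cre day 0, 2 Mb1Cre day 3, 2 Mct1f/fMb1Cre day 0 and 3 Mct1f/fMb1Cre day 3 libraries). Genes averaging 1 FPKM or more across the 9 libraries were kept. Values were taken as log2(FPKM + 1) and fitted in R 4.3.3 by limma 3.58.1, using 1 mean per group and a trend in the prior variance, so that the 9 libraries share 1 estimate of the spread, and day 3 was compared with day 0 within Mb1Cre. Adjustment followed Benjamini and Hochberg, and calls needed an adjusted p below 0.05 with a log2 fold change beyond 1 in either direction. The fit was tested on simulated data. Tables were handled in Python 3.11.15 with pandas 2.3.3 and numpy 2.4.6, and plots were drawn with matplotlib 3.10.9. Promoters were taken from RefSeq and gene positions from the GENCODE annotation of GRCm38.

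The comparison and the gene lists were chosen with earlier results of these data known. Named were Slc16a1, Pkm and Blk, the genes the study names in B cells, up to 3 called genes per list and direction with the largest log2 fold change, the 10 largest increases and decreases, the 5 highest levels of each day, the Y-linked genes and Jchain. Bsg, Slc16a8, Cd79a, Pax5, Cd3e, Ccnd3, Jak3, Lck, Nkg7, Cd8b1, Hbb-bt and the genes with printed promoters fall outside that rule or were picked after their values were seen. Alternatives were another pseudocount, filter, scaling or log2 limit, a fit on the 4 libraries, a replicate block, no trend, a Y-linked covariate and leaving out each library. Heavy chain constant region genes and Xist were not analysed here, and some genes that the rule names are not reported here.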

Additional observations from a re-analysis of the deposited data

Results flagged for a closer look

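The response to LPS and IL-4 differed between the genotypes by the interaction term of the limma fit, at more than 1 in size on the log2 scale, for 5 of the 175 named genes with a test. Over all 10823 genes, 40 passed with a negative interaction (0.37%) and 16 with a positive one (0.148%), and among the 785 tested genes of the lists, named or not, 9 were negative and 1 was positive. Each is given as the log2 response of Mct1f/fMb1Cre cells minus that of Mb1Cre cells, with its SE and its adjusted p. Ctla4, an inhibitor of costimulation, had -2.08 ± 0.13 (adjusted p = 4.1e-05), with 12.1 and 11.6 FPKM in the control cells and 2.23, 1.99 and 1.91 FPKM in the floxed cells on day 3. For the chemokine Ccl22 the value was -1.77 ± 0.16 (adjusted p = 0.0003), with 36.1 and 36.7 FPKM against 11.5, 11.5 and 12.0 FPKM on day 3. Il6, a cytokine, had -1.56 ± 0.13 (adjusted p = 0.00016), with 11.8 and 12.5 FPKM against 4.13, 3.76 and 3.58 FPKM on day 3. Jchain, the joining chain of IgM and IgA, had -1.44 ± 0.20 (adjusted p = 0.0025), and its day 0 values of 62.3 and 77.9 FPKM in control and 160 and 117 FPKM in floxed cells differed already. Slc16a1, the gene that Cre targets in the floxed cells, had -1.06 ± 0.11 (adjusted p = 0.00042). On day 3 the genotypes did not overlap in any of the 5. That follows largely from choosing them by their interaction and is no added result. The Y-linked level was not balanced between the groups on day 0, and its part in these values was not tested.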

How the results depend on the processing

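The count of lower genes moved from 1867 to 991 with a pseudocount of 5 FPKM and to 1227 with a minimum mean of 5 FPKM, where 8430 genes were tested. With a log2 limit of 0.5, 2687 genes were higher and 3571 lower, and with no limit 4008 and 5144. Leaving out 1 library gave 1307 to 1354 higher and 1834 to 1892 lower genes. Scaling moved the split from 1324 higher and 1867 lower to 1014 and 2305 (same FPKM total), 1741 and 1482 (median-of-ratios) and 1502 and 1525 (quantile). The replicate block gave 1324 and 1868 and changed no call of a named gene. The deviations of same-numbered libraries had no positive correlation across genes (r = -0.12). With 2 libraries per day this correlation cannot tell whether replicate numbers pair the samples. Ddx3y had 0.24 and 0.02 FPKM on day 0 against 14.7 and 16.5 FPKM on day 3. Same-numbered Mb1Cre libraries of the days thus differed in their Y-linked level. The crossed replicate block, chosen after seeing the data, gave 1324 and 1866. With the Y-linked level as a covariate 1372 and 1934 genes were called, of which 1251 and 1779 were shared with the values reported. Within the Mb1Cre libraries that level goes with the day, so the shared calls cannot separate the Y-linked level from the day. The covariate was the mean log2 level of Ddx3y, Eif2s3y, Kdm5d and Uty, so it takes out their own change by construction. With it Ddx3y turned to -0.52, Kdm5d to -0.22 and the median of the Y-linked list to -0.10. The median of LPS sensing and NF-kB genes turned to 0.021 with median-of-ratios scaling, and that of cytokines and chemokines to 0.0501 with quantile normalization. For mitochondrial dynamics it turned to -0.16 with the same FPKM total, and it ranged from -0.0115 (without day 0 replicate 2) to 0.0908 when 1 library was left out. Why the medians of these lists other than the Y-linked list turned was not tested. Of 175 named genes, 150 kept their call under the alternatives, and Col1a1 and Gpr183 were the 2 that lost it when 1 library was left out. Without depth, the precision of low values is unknown.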

Other observations

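By mean FPKM, a level per gene length, Cd74, Eef1a1, Rps27, H2-Aa and Tpt1 were the 5 highest genes on day 0 and Eef1a1, Cd74, Gapdh, B2m and Rps26 on day 3. The endothelial and platelet marker Pecam1, which some B cells also express, had 90.0 and 89.4 FPKM on day 0 against 13.3 and 13.8 FPKM on day 3 and was called lower (-2.64). Vegfa, the vascular growth factor, rose by 3.11 on the log2 scale. Among the floxed libraries on day 0, Ddx3y had 31.1 FPKM in replicate 1 and 0.20 FPKM in replicate 2, and it had between 15.4 and 16.9 FPKM in the 3 floxed day 3 libraries.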
